A study of Mus musculus with 8 samples.

Results

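The regions described here are the longest dense runs of HpaII sites on the mouse autosomes. A site entered if it was listed in all 8 deposited files and had at least 10 tags in the MspI reference, and neighbouring sites were joined where the gap between them was at most 500 bp. Clusters of 20 or more sites were kept at any level of methylation, which gave 1050 clusters with 25945 sites, out of 20674 autosomal clusters of at least 5 sites and out of 901212 autosomal sites that met the tag minimum. Another 7 clusters of this size lay on the X or Y chromosome and were left out. The rule used position and MspI tags and set no limit on the methylation value. MspI tags are also the reference against which that value is read, so the choice is not independent of the readout.

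The DNA came from frozen liver of C57BL/6J mice, 4 of which were on a lingonberry-supplemented high-fat diet and 4 on the same fat-rich feed without berries (HFD). Both groups therefore share the high-fat diet, and no normal-diet group is among the samples. Methylation was read by HELP-tagging, in which HpaII cuts CCGG only if the inner CpG is unmethylated and short tags from the cut ends are counted. The value per site is the m-score, the angle between HpaII tags and a reference of MspI tags, an enzyme that cuts CCGG in either state. It runs from 0, the methylated end, to 100, the unmethylated end. The reference is scaled to the HpaII total of each sample, so an m-score places a site among all sites in that sample and is no absolute level. Sample totals ran from 5858601 to 16060380 HpaII tags, with 6104751 to 16060380 in the lingonberry group and 5858601 to 7411193 in the HFD group. The median cluster of 20 or more sites held 445 to 1467 tags in a sample.

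Most CpGs in the mouse genome are methylated and have been thinned out over evolution by deamination. CpG islands are stretches where CpGs stayed dense, and they are kept unmethylated in most tissues, often at the start of housekeeping genes and of developmental regulators. Methylation of an island at a gene start is associated with stable silencing, whereas islands inside genes or far from known starts are methylated more often. HpaII sites are a sample of the CpGs in such islands.

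The clusters were compact. The median cluster had 23 sites over 2227 bp, the shortest spanned 1029 bp and the longest 8136 bp, and the median density was 10.8 sites per kb. Of the 1050 clusters, 902 had 20 to 29 sites, 148 had 30 or more and 17 had 40 or more. Chromosome 11 held the most, at 88. Chromosome 17 had the largest share of its tested sites in such clusters, at 4.14%, and chromosome 16 the smallest, at 2.04%.

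Gene names were attached by sequence. No mm9 annotation was used, and instead the spacing of CCGG in RefSeq promoter windows (250 bases before and 50 after each gene start, GRCm38.p6) was matched to the spacing of the listed sites. A match of at least 4 CCGG was found in 469 of the 1050 clusters (44.7%). The share was 30.4% of the 5608 clusters of 10 to 19 sites and 5.36% of the 14016 clusters of 5 to 9 sites. Denser clusters hold more CCGG to match, so these shares also follow from density, and a cluster without a match may still hold a gene start. The 250 bases upstream of 6 matched starts are given below, 5′ to 3′ on the strand of the gene, from RefSeq GRCm38.p6, with CCGG, the HpaII site, in capitals. Phf21b stands for the clusters with the most sites, Zc3h4 and Dipk2a for the highest m-scores, Celsr2 for a cluster that changes state along its length, and Uck2 and Inafm2 for the smallest diet p-values. Zc3h4 and Inafm2 are on the plus strand, and Phf21b, Dipk2a, Celsr2 and Uck2 on the minus strand.
Phf21b: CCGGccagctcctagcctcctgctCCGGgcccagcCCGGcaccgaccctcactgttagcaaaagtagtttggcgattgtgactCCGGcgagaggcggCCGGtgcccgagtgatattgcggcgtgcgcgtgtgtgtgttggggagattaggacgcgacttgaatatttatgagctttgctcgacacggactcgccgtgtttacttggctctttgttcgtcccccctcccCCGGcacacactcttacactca
Zc3h4: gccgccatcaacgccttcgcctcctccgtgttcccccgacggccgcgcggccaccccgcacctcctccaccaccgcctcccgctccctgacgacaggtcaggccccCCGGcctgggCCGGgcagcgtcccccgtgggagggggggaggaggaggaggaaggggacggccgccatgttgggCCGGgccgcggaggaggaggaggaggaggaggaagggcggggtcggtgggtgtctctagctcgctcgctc
Dipk2a: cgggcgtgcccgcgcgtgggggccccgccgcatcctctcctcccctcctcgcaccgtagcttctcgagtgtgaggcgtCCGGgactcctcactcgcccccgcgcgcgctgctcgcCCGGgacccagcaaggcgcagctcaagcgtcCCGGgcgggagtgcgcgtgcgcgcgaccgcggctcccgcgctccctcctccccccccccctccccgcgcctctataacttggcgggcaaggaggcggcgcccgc
Celsr2: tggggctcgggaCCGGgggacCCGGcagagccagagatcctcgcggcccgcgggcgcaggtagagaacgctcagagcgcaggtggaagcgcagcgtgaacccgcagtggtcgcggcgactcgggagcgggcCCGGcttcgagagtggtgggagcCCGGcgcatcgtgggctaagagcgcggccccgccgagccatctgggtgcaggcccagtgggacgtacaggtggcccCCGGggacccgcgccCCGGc
Uck2: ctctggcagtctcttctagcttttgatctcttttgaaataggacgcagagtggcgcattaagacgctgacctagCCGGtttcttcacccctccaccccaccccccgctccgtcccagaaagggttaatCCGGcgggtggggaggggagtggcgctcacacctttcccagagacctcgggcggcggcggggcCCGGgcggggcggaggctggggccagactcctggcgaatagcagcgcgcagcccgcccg
Inafm2: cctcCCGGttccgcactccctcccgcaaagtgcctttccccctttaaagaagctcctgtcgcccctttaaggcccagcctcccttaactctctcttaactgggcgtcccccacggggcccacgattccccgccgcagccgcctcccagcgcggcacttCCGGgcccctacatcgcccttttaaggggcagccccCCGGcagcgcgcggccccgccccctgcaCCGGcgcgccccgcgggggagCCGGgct

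The m-scores of single sites in these stretches show how even, or uneven, an unmethylated island is. Positions count from the gene start, so that the first base printed is at -250, and name the first C of a CCGG. In Zc3h4, which encodes a zinc finger protein that limits noncoding transcription, the 3 upstream sites at -144, -134 and -70 had m-scores of 85.3, 85.8 and 85.9, means over the 8 samples. In Dipk2a, which encodes a protein with a divergent kinase domain, the sites at -172, -135 and -104 had 81.8, 77.9 and 86.1. In both promoters all printed sites were in the unmethylated part of the scale. In Uck2, which encodes a uridine-cytidine kinase of pyrimidine salvage, the 4 sites at -176, -122, -59 and -3 had 85.4, 63.3, 83.3 and 67.5. In Phf21b, which encodes a PHD finger protein, the sites at -250 and -215 had 62.0 and 45.15, and those at -167 and -153 had 72.3 and 81.7. The printed site nearest the start had 54.6, and the remaining printed site has no value here. The Phf21b site at -215 ranged from 6.69 to 68.7 between samples, which shows how far 1 site can vary where the cluster mean does not. In Celsr2, an adhesion receptor of the cadherin family, the 5 listed upstream sites lay between 74.3 and 88.6.

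The promoter windows in these clusters were rich in G and C. Over 608 matched windows the median G+C content was 73.7% and the median observed-to-expected CpG ratio 0.92. The same values were 69.3% and 0.88 in 2919 matched windows of clusters of 5 to 19 sites, 69.7% and 0.88 in all 4362 windows with 4 or more CCGG, and 53% and 0.39 in all 32544 windows. GGGCGG, the GC box bound by Sp-family factors, was found on either strand in 85.7% of the windows in long clusters, 81.5% of those in shorter clusters and 35.9% of all windows. TATAAA, the core element bound by TBP, was found in 2.80%, 2.74% and 13.6%, and CCAAT in 26.8%, 27.4% and 37.4%. TGACGTCA, the full cAMP response element, was found in 2.14%, 3.01% and 1.80%. These 4 motifs were searched on both strands, and none contains another. Apart from G+C content the long clusters resembled the shorter ones in this respect, and a match of letters shows no binding.

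Clusters of 20 or more sites lay in the upper part of the m-score scale in liver with few exceptions. A cluster is called unmethylated here where its mean m-score was 50 or above. At the stricter limit of 75 used for shares further on, which cuts through the main peak, 429 of 1050 (40.9%) would be called so. The mean m-score over the 1050 clusters was 73.2 with an SD between clusters of 6.62, and the interquartile range ran from 71.9 to 76.3. In clusters of 10 to 19 sites the mean was 69.4 (SD 14.1), and in clusters of 5 to 9 sites it was 46.7 (SD 28.2). A mean of 50 or above was seen in 1038 of the long clusters (98.9%), against 93.5% and 53.2% in the shorter classes. A mean below 25 was seen in 5 long clusters (0.476%), against 3.89% and 32.1%. At the boundary of the rule, the 194 clusters of exactly 20 sites had a mean of 73.6 and the 228 of exactly 19 sites a mean of 72.3.

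**Figure D1:**
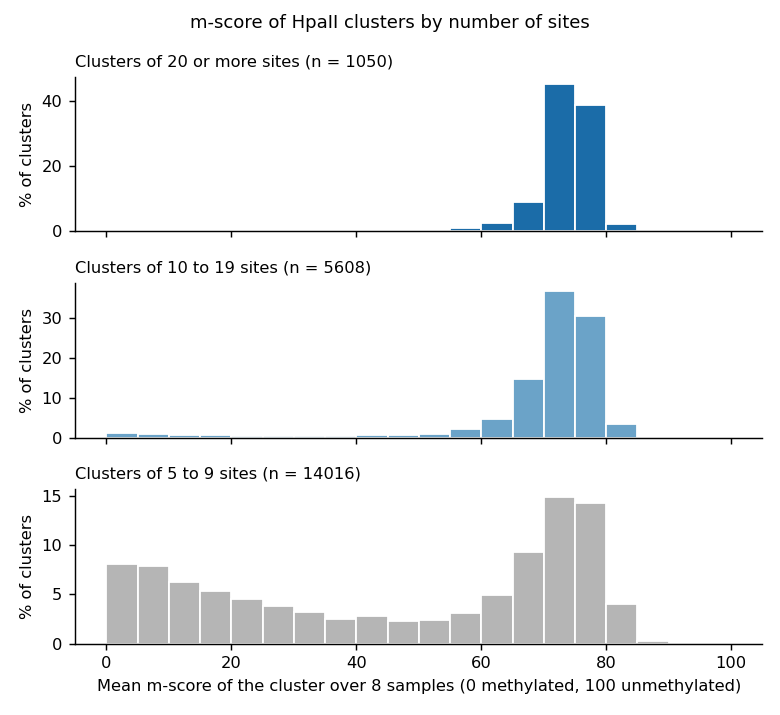
Share of clusters (y axis, percent) by mean m-score over the 8 samples (x axis, bins of 5; 0 methylated, 100 unmethylated) in 3 classes of cluster size. Clusters of 20 or more sites form a single peak between 65 and 80 (974 of 1050), whereas clusters of 5 to 9 sites are spread from 0 up to 88.8.

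The contrast with shorter clusters held in every sample. Members of 20 or more sites were higher than clusters of 5 to 19 sites by 20.5, 21.5, 20.2 and 20.8 in the 4 lingonberry samples and by 20.3, 19.2, 18.0 and 19.7 in the 4 HFD samples. All 8 differences had the same sign, with a mean of 20.01 (two-sided exact sign-flip permutation test, p = 0.0078). This p is the smallest that 8 samples allow, and it covers agreement among samples, not the spread between clusters. The size of the contrast depended on the rule. It was 10.98 with at least 20 MspI tags, 9.32 with gaps of at most 250 bp and 26.55 with gaps of at most 1000 bp. Of the 19624 clusters of 5 to 19 sites, 14016 had 5 to 9 sites, the class with the lower mean. Long clusters were also the steadiest between mice. The median within-group SD of a cluster was 2.03, against 2.48 in clusters of 10 to 19 sites and 3.64 in clusters of 5 to 9, and it comes with more sites per mean and a median of 32.5, 31.01 and 16 tags per site. Among the 997 clusters with a mean of 65 or above, the mean m-score had Pearson correlations of -0.03 with the number of sites and 0.15 with sites per kb. Its correlation with MspI tags was -0.01 by Pearson and -0.10 by Spearman. With the SD of sites within the cluster it had a Pearson correlation of -0.70. All of these are descriptions over clusters that share all libraries.

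At the level of sites, 55.9% of the 25945 averaged at least 75, 37.1% lay between 50 and 75, and 4.63% between 25 and 50. The remaining 599 sites (2.31%) lay below 25, and 139 of these were in the 5 methylated clusters. No site below 25 was found in 788 clusters (75.05%). The m-score fell off at the ends of the clusters. The outermost site on either side had a mean of 65.3, the next 70.7, and sites from the sixth inward about 74.6. The central sites exceeded the outer 5 on either side by 3.28 on average. In single samples the excess was 1.73 to 4.90 (higher in 8 of 8, two-sided exact sign-flip permutation test, p = 0.0078). Here too the p covers agreement among samples, not the spread between clusters. The joining rule sets where a cluster ends, and the mean excess changed with it. It was 1.20 with gaps of at most 250 bp and 7.34 with gaps of at most 1000 bp. With at least 20 MspI tags it was 2.32.

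Around matched gene starts, long clusters carried a wider unmethylated stretch. This was measured at 399 starts in clusters of 20 or more sites that matched 1 gene only, and at 1498 starts in clusters of 10 to 19 sites. In the 250 bp upstream of the start the mean m-scores were 75.6 and 75.1. From 1750 to 2000 bp upstream they were 59.6 and 35.7, and from 1750 to 2000 bp downstream 60.9 and 38.3. The ranges over samples did not overlap there, at 57.8 to 61.5 against 33.8 to 36.7 upstream and 59.1 to 62.5 against 36.5 to 40.2 downstream. These means take all sites near the start that met the MspI minimum, in or outside the cluster. The median span was 2227 bp in clusters of 20 or more sites and 1280 bp in clusters of 10 to 19. Sites at 1750 to 2000 bp can thus lie outside the shorter clusters and inside the longer ones. How much of the contrast follows from this size rule was not tested. From 2750 to 3000 bp downstream the values came close, at 39.8 and 32.5.

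**Figure D2:**
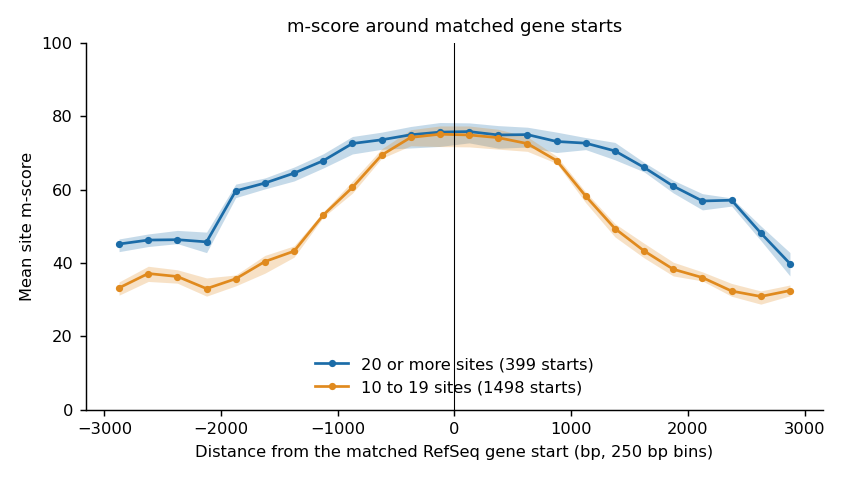
Mean site m-score (y axis, 0 to 100) by distance from the matched RefSeq gene start (x axis, bp, negative upstream, bins of 250 bp) for clusters of 20 or more and of 10 to 19 sites. Lines are means over samples and bands the range over the 8 samples. The curves meet near 75 at the start and part from about 750 bp on, where the curve for the longer clusters stays higher. Sites in and outside the clusters are included.

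Among the 469 clusters with a matched gene start, 15 (3.20%) carried a symbol from a list of developmental transcription factor families. The share was 0.704% in clusters of 10 to 19 sites and 0.533% in clusters of 5 to 9 sites. They were Foxf2, Foxd2, Foxp4, Foxc1, Foxl2, Nkx6-1, Nkx6-2, Nkx3-2, Pou4f1, Pax2, Lhx4, Six2, Six4, Hoxd9 and Hoxa11os, and the last is an antisense RNA of a homeobox gene. These genes direct the patterning of embryonic tissues, and most act in organs other than the adult liver. All 15 clusters were unmethylated, with a mean m-score of 74.0 and a range from 69.4 at Foxf2, a forkhead factor of mesenchyme, to 77.5 at Nkx3-2, a homeobox factor of cartilage. The list of signalling genes matched 6 clusters, with means from 72.6 to 75.6. Wnt3a, Wnt11 and Wnt3 are secreted Wnt ligands, whereas Fgfr3 and Bmpr1a are receptors and Bmp2k a kinase that the symbol prefixes also picked up. No cluster with a matched start had a mean below 25, and 17 of 469 were below 65. Of the 581 clusters without a match, 36 were below 65, including all 5 below 25.

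Apart from the largest, the clusters with the most sites were unmethylated. Of the 10 largest, with 47 to 63 sites, 8 had means between 69.2 and 78.6. Ubtf, which encodes a transcription factor for ribosomal RNA genes, lay in a cluster of 53 sites at chr11:102177768-102182049 (mm9) with a mean of 77.4, and all 53 sites were above 50. Phf21b lay in a cluster of 49 sites at chr15:84683470-84686968 with a mean of 75.5. C130021I20Rik, a noncoding RNA gene, lay in 50 sites at chr2:33494744-33500126 (mean 74.2), and 5930403L14Rik in 47 sites at chr4:154008758-154012437 (mean 72.4). A cluster of 61 sites at chr19:45303625-45311760, the longest in bp, had a mean of 74.6, and the nearest matched start was that of Tlx1, a homeobox gene, at 78.4 kb. The cluster of 54 sites at chr5:111845661-111850194 had a mean of 52.1 and changed state along its length. The largest of all, with 63 sites, was methylated throughout.

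A cluster of 62 sites at chr17:39979960-39985699 stood apart in depth, with a median of 3064 MspI tags and 2952 HpaII tags per site. It held 16.2% to 19.5% of all HpaII tags in clusters of 20 or more sites in each sample. Its mean m-score was 73.6, in the middle of the range of the other clusters. Of its 62 sites, 16 (25.8%) shared tags with another place, so the value cannot be assigned to this cluster alone. The interval between its nearest matched starts, Trim26 and Cenpq, holds 130 genes in the RefSeq order of GRCm38.p6, among them Rn18s-rs5, a pseudogene related to ribosomal RNA. The cluster itself was not matched to that gene. Its m-score was 73.5 ± 2.33 with lingonberries and 73.7 ± 1.42 with HFD alone (SD, n = 4).

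The 5 clusters with a mean below 25 were the following, and none held a matched gene start. The cluster of 63 sites at chr12:5061882-5068321 had m-scores of 1.18, 1.16, 1.02 and 1.90 in the lingonberry samples and 2.03, 1.60, 0.58 and 1.03 in the HFD samples. All of its 63 sites were below 25, and it had 0.20 HpaII tags per site against a median of 36.8 MspI tags. This CpG-dense stretch of 6440 bp was at the methylated end of the scale in both diets. At least 22 of its sites (34.9%) shared tags with another place by a flag that used HpaII tags, which a site without HpaII tags could not meet. Sites 2, 16 and 20 had 0 HpaII tags, and their MspI tags were not whole numbers either, at 48.3, 69.8 and 30.7. Sharing thus reached beyond the flagged sites. Sites 13, 34, 40 and 48 had identical values, with 57.6 MspI tags each, so its 63 sites need not be separate readings. The cluster at chr5:93369293-93372061 (21 sites) had 2.49, 2.94, 3.49 and 2.01 with lingonberries and 4.06, 1.61, 3.73 and 1.94 with HFD alone. The nearest matched starts to chr7:4981349-4983782 (23 sites) were those of the zinc finger genes Zfp579 and Zfp784, the latter at 6.27 kb. That cluster had 6.43, 5.69, 9.69 and 2.22 against 7.24, 6.26, 5.17 and 6.56. In these 3 the diets overlapped and no sample left the methylated end of the scale. The cluster at chr17:45653406-45657606 (21 sites) had 15.6, 12.5, 10.3 and 14.6 against 11.6, 11.3, 8.44 and 12.7. The nearest matched starts to chr7:53048717-53050855 (22 sites) were those of Sult2b1, a steroid sulfotransferase gene, and Grwd1. This cluster had 17.8, 13.2, 17.7 and 16.4 against 9.54, 13.6, 13.6 and 15.2. The diets overlapped here too. The mean of the chromosome 17 cluster became 28.03 with gaps of at most 250 bp and 4.99 with at least 20 MspI tags, and that of the last cluster 23.9 with gaps of at most 250 bp. The chromosome 12 mean became 0.64 and 0.55 under the same settings.

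At the other end were Zc3h4 (chr7:16984859-16986845, 22 sites, mean 82.9) and Dipk2a (chr9:94437822-94439301, 21 sites, mean 81.4). With them were clusters at chr1:173001669-173004494 (81.9), chr4:84320346-84321941 (81.2) and chr1:155178589-155181204 (81.2). Zc3h4 had 83.1, 84.3, 82.5 and 83.8 with lingonberries and 83.2, 82.1, 80.8 and 83.9 with HFD alone, which overlap. All 24 sites of the cluster at chr1:173001669-173004494 shared tags with another place, so its value cannot be assigned to that place alone. The highest mean was thus 82.9, and no long cluster reached the top of the scale.

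Some clusters held both states. A run of at least 5 neighbouring sites below 25 was found in 15 clusters, and in 10 of these a run of at least 5 sites at 50 or above lay in the same cluster. In the Celsr2 cluster (chr3:108215039-108220504, 31 sites) the first 13 sites, over 2661 bp, had a mean of 1.62, and sites 14 to 28, over 1201 bp, a mean of 77.8. The matched start of Celsr2 lay in the second run, with the promoter sites printed above. As Celsr2 is on the minus strand, the methylated run is on the downstream side of its start. Over the samples the methylated run ranged from 0 to 4.89 and the unmethylated run from 73.9 to 80.3. In the cluster at chr17:27069742-27074375 (25 sites), 2.03 kb from the matched start of Cuta, sites 1 to 10 had a mean of 78.3 and sites 11 to 25 a mean of 5.05. At chr8:73119790-73122724 (23 sites), sites 1 to 8 had 4.64 and sites 11 to 22 had 75.8. At chr11:75264715-75268257 (21 sites), sites 1 to 6 had 6.62 and sites 13 to 21 had 72.4. The cluster at chr17:46785456-46790052 (21 sites, mean 48.0), 2.28 kb from the matched start of the mitochondrial ribosomal protein gene Mrpl2, had the next widest spread, with 7 sites below 25 and 10 at 50 or above. In Fzd5, a receptor for Wnt ligands (chr1:64781606-64784682), the first 5 sites had 10.1 and sites 8 to 22 had 74.1. In the cluster with the starts of Dpm1 and Mocs3 (chr2:168055228-168058015), sites 1 to 24 had 75.6 and sites 25 to 31 had 6.32. Dpm1 makes a mannose donor for glycosylation and Mocs3 acts in molybdenum cofactor synthesis.

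**Figure D3:**
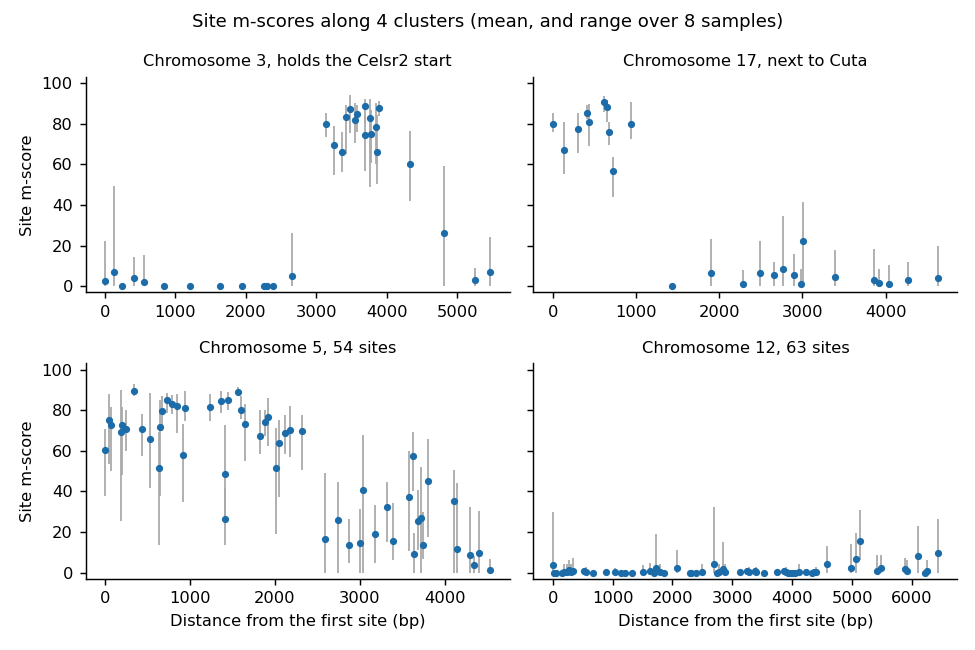
Site m-score (y axis) by distance from the first site of the cluster (x axis, bp) in 4 clusters. Points are means over the 8 samples and lines the range over samples. The Celsr2 cluster, the cluster next to Cuta and the cluster of 54 sites on chromosome 5 pass from one state to the other, and the cluster of 63 sites on chromosome 12 stays near 0.

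The joining rule decides whether such neighbours form 1 cluster. With gaps of at most 250 bp the Celsr2 cluster had a mean of 79.0 in place of 39.5, the one next to Cuta 78.3 in place of 34.3, and that on chromosome 11 72.4 in place of 38.1. With at least 20 MspI tags they had 36.1, 69.2 and 8.35. The diets overlapped in all 5 clusters with the widest spread, and the largest difference between diet means among them was at chr17:46785456-46790052, at 47.7 ± 2.25 with lingonberries against 48.3 ± 1.84 with HFD alone.

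The diet comparison asks whether lingonberries in the high-fat diet changed methylation of these regions. Long clusters had a slightly higher mean m-score with lingonberries, and the difference did not pass the test. The means were 74.2, 74.4, 73.0 and 75.4 in the lingonberry samples and 73.2, 72.0, 70.2 and 73.0 in the HFD samples. The groups overlapped, as lingonberry sample 3 lay below HFD samples 1 and 4. The group means were 74.3 ± 1.00 and 72.1 ± 1.37 (SD, n = 4), a difference of 2.13 (two-sided exact permutation test, p = 0.0857; 0.0857 after Benjamini-Hochberg adjustment over 6 diet contrasts; the smallest p this design allows is 0.0286). HFD sample 3 was both the lowest and the shallowest library, and without it the difference was 1.51. With all libraries thinned to the lowest depth it was 1.82. When tags were scaled to those at clusters of 5 or more sites in place of all sites, it was 0.50 (exact permutation test, p = 0.257). That set includes the long clusters themselves, so a shift that they share with shorter clusters is partly removed by this scaling. The size of the difference thus rests on which sites the libraries are compared over, and which scaling is apt was not tested.

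**Figure D4:**
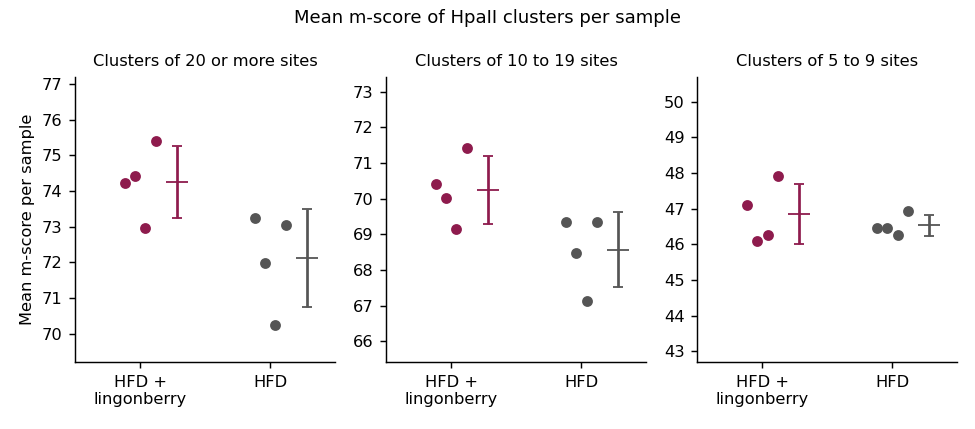
Mean m-score per sample (y axis, each panel spanning 8 units) for clusters of 20 or more, 10 to 19 and 5 to 9 sites. Points are samples, and the bars give the group mean and SD (n = 4). The lingonberry and HFD samples overlap in all 3 classes.

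The other contrasts pointed the same way and also failed the test. The share of long clusters with a mean of 75 or above was 54.6% ± 12.1 with lingonberries and 31.2% ± 12.5 with HFD alone (exact permutation test, p = 0.0857). This threshold lies inside the main peak of the distribution, so small shifts move many clusters across it, and single samples ranged from 14.9% to 68.1%. At a threshold of 50 the difference was 0.048 percentage points. Of the member sites, 61.6% ± 2.97 and 55.3% ± 3.71 were at 75 or above (exact permutation test, p = 0.0571). The clusters held 13.0% ± 0.49 and 11.9% ± 0.65 of the HpaII tags at autosomal sites, a measure that does not use the MspI reference (exact permutation test, p = 0.0571). The excess over clusters of 5 to 19 sites was 20.7 ± 0.57 and 19.3 ± 0.95 (exact permutation test, p = 0.0571), and the excess of central over outer sites 3.81 ± 0.77 and 2.75 ± 0.78 (exact permutation test, p = 0.0857). After Benjamini-Hochberg adjustment each of the 6 p-values was 0.0857. In all of them at least 1 lingonberry sample overlapped the HFD range.

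No single cluster was called. In limma over all 21020 clusters of 5 or more sites, 0 of the 1050 long clusters passed an adjusted p of 0.05, as did 0% of all clusters, and the smallest adjusted p was 0.602. At an unadjusted p below 0.05, 108 long clusters (10.3%) were higher with lingonberries, where the share over all clusters was 6.36%, and 0 were lower, where it was 1.86%. All 4 lingonberry samples lay above all 4 HFD samples in 114 long clusters (10.9%), against 3.89% of all clusters, and below in 0, against 0.961%. The mean was higher with lingonberries in 1006 long clusters, or 95.8%, against 65.9% of all clusters, and the median difference was 2.11 against 1.02. All clusters are mostly clusters of 5 to 9 sites, where the diet means differed by 0.32. That difference was 1.67 in clusters of 10 to 19 sites, 1.96 in those of exactly 19 sites and 2.13 in long clusters. The shift is thus not particular to long clusters. The size of the limma values depended on the scaling. With tags scaled to clusters of 5 or more sites, the median difference over all clusters moved to -0.40 and that of long clusters to 0.47, and again 0 of 1050 and 0% of all clusters passed an adjusted p of 0.05 in limma. The mean was then higher with lingonberries in 688 long clusters, or 65.5%, against 42.8% of all clusters. At an unadjusted p below 0.05, 14 long clusters (1.33%) were higher, against 1.47% of all clusters, and 1 was lower, against 4.20%. The groups did not overlap upward in 32 (3.05%), against 1.11%, and downward in 7 (0.667%), against 2.25%. Under this scaling the share of long clusters higher at an unadjusted p below 0.05 was therefore no larger than that of all clusters.

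HpaII tags per 1000000, tested without the MspI reference on the log2(value + 0.5) scale, gave the same picture. In limma 0 of 1050 long clusters and 0% of all clusters passed an adjusted p of 0.05, with a smallest adjusted p of 0.357. At an unadjusted p below 0.05, 341 long clusters (32.5%) were higher, against 11.1% of all clusters, and 0 were lower, against 1.51%. The groups did not overlap upward in 174 (16.6%), against 5.63%, and downward in 0, against 0.856%. The mean was higher in 1034, against 71.0% of all clusters. The median log2 difference was 0.14 in long clusters and 0.09 in all clusters. Scaling to tags at clusters shifted the median over all clusters by -0.11 on the log2 scale. Relative to that median the long clusters stood at 0.05 both before and after. Such a scaling moves all clusters of a sample by nearly the same log2 amount, so the unchanged 0.05 is no test. In that scaling 0 long clusters and 0% of all clusters passed an adjusted p of 0.05 in limma, and the mean was higher in 727 long clusters, against 44.1% of all clusters. At an unadjusted p below 0.05, 37 (3.52%) were higher, against 1.39%, and 6 (0.571%) lower, against 3.60%. The groups did not overlap upward in 35 (3.33%), against 0.990%, and downward in 7 (0.667%), against 2.10%.

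Single sites gave no call either. Of the 25945 member sites, 0 passed an adjusted p of 0.05 in limma, where 0.00978% of 920205 sites did, and the smallest adjusted p among them was 0.334. At an unadjusted p below 0.05 there were 1452 member sites (5.60%), against 5.16% of all sites. Of these, 1239 were higher with lingonberries (4.78%), against 1.94% of all sites, and 213 lower (0.821%), against 3.23%.

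The 5 clusters with the smallest limma p were all higher with lingonberries and did not overlap between diets, but all had an adjusted p of 0.602. At chr19:5559934-5561752 (25 sites), 6.27 kb from the matched start of Ap5b1, the samples had 75.3, 79.7, 75.8 and 77.2 with lingonberries and 73.2, 70.7, 67.1 and 69.5 with HFD alone. The difference was 6.89 with a standard error of 1.77. The Uck2 cluster (chr1:169213974-169215433, 22 sites) had 77.4, 79.1, 79.5 and 80.1 against 74.8, 75.5, 72.6 and 74.0, a difference of 4.81. Every lingonberry value here lay above every HFD value. Its promoter site at -122 had 71.1 ± 4.43 against 55.5 ± 8.66, and that at -59 had 84.1 ± 2.40 against 82.4 ± 4.69, so sites less than 100 bp apart differed in size. The Jmy cluster (chr13:94268342-94270095, 28 sites), named for an actin nucleator, had 77.4, 78.5, 75.9 and 77.6 against 73.8, 73.5, 71.2 and 71.5, a difference of 4.85. The Inafm2 cluster (chr2:118571137-118572507, 24 sites) had 73.9, 76.1, 74.0 and 76.5 against 72.4, 68.5, 66.2 and 69.98, a difference of 5.86. At chr11:98188384-98190253 (23 sites) the samples had 76.2, 75.6, 72.1 and 73.8 against 71.4, 66.0, 67.9 and 69.4, a difference of 5.75. All of these clusters were unmethylated in both diets, and the differences lie within the unmethylated part of the scale.

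In the other direction the differences were smaller and every cluster overlapped. At chr10:79774608-79777396 (23 sites) the samples had 45.8, 40.6, 42.0 and 52.9 with lingonberries and 49.4, 48.2, 51.3 and 46.9 with HFD alone, a difference of -3.62 (limma, adjusted p = 0.780). The Upp2 cluster (chr2:58418877-58420009, 21 sites), which holds a start of the uridine phosphorylase gene, had 76.9, 77.8, 80.1 and 79.6 against 81.6, 78.3, 78.0 and 81.2, a difference of -1.18 (limma, adjusted p = 0.826). The remaining 3, on chromosomes 12, 16 and 18, differed by -1.41, -1.50 and -2.31. Of the 15 developmental factor clusters 14 (93.3%) had a higher mean with lingonberries, close to the 95.8% of all long clusters, with 65.9% of all clusters. At an unadjusted p below 0.05 there were 0, where 10.3% of long clusters and 6.36% of all clusters were higher, and 1, Pou4f1, did not overlap between diets, where 10.9% and 3.89% lay upward without overlap. Hoxd9, the exception in direction, had 72.7 ± 1.91 against 74.0 ± 2.48. Of the 6 signalling clusters, Wnt3a (75.3 ± 0.44 against 71.7 ± 2.14) and Bmpr1a (76.3 ± 1.12 against 73.2 ± 0.68) did not overlap, against the same 10.9% of long and 3.89% of all clusters, with a limma adjusted p of 0.606 for each. The medians over these lists, 2.41 and 2.37, were close to that of all long clusters.

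By position within the cluster, the difference between diet means was -0.25 at the outermost site, 1.19 at the next, and 2.31 to 2.73 from the fifth site inward. The test of central against outer sites by diet, given above, did not pass (exact permutation test, p = 0.0857), and HFD sample 1 at 3.59 lay above lingonberry samples 1 and 3 at 3.13 and 3.50. It is not shown that the diet difference varies with position. Values are also given by the distance to the nearest listed site. In the 997 clusters with a mean of 65 or above, sites with a neighbour 4 to 15 bp away had 71.9 ± 1.43 with lingonberries and 68.3 ± 2.87 with HFD alone. Sites 76 to 100 bp from their neighbour had 78.4 ± 1.35 and 77.2 ± 0.74, and those more than 150 bp away had 66.2 ± 1.97 and 67.2 ± 0.81. In both diets the level rose and fell with spacing, from 70.1 at the closest sites over 77.8 to 66.7 at the most distant ones as means of all samples. The contrast of the closest with the most distant sites, chosen after its values were seen, was 5.44, 8.78, 3.92 and 4.74 in the lingonberry samples and 4.07, 0.35, -3.32 and 3.15 in the HFD samples. Lingonberry sample 3 lay below HFD sample 1, and the difference between groups was 4.66 (two-sided exact permutation test, p = 0.0571). The share of the diet difference that goes with spacing was not tested.

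**Figure D5:**
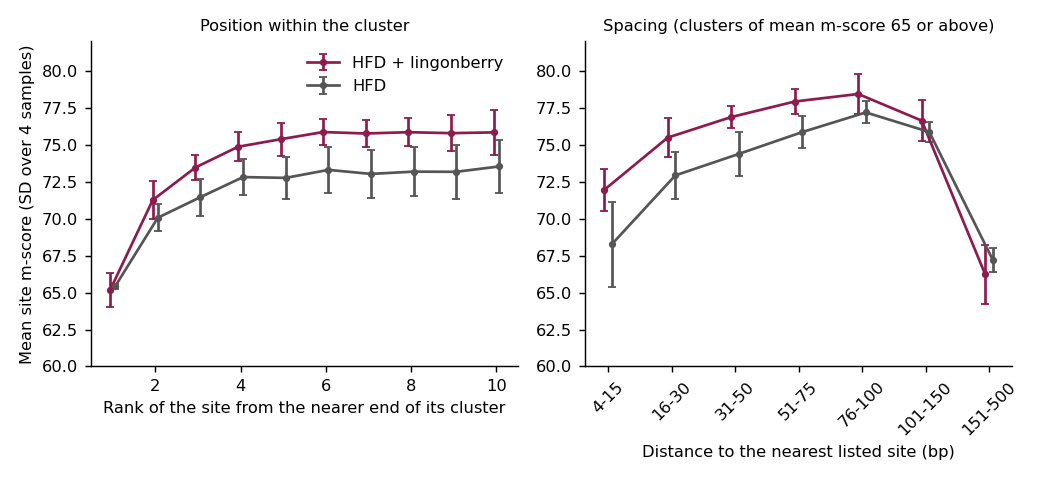
Mean site m-score (y axis, 60 to 82) by rank of the site from the nearer end of its cluster (left) and by distance to the nearest listed site in bp (right), for lingonberry and HFD samples. Points are group means and bars the SD over 4 samples. The group means are close at the ends of clusters and at distant sites and further apart at inner and closely spaced sites, and neither difference in gap passed its test.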

How the data were processed

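HELP-tagging files of 8 liver DNA samples were used, 4 per diet as the labels' diet field gives it, with replicate numbers in accession order that pair nothing. The deposited files give, per the file headers, an m-score (a score from 0 to 100) and conf, a signal that is never negative, read from their values as the angle and length of the vector of MspI and HpaII tags. The build mm9 and CASAVA are named in the submitters' processing notes. Not given in the sources used here are the aligner, the MspI reference and the tag filters. HpaII and MspI tags were recovered as sine and cosine components and are approximations, so no count model was used.

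Clusters were built from sites with at least 10 MspI tags (tolerance 0.01) and gaps of at most 500 bp. Two-sided exact permutation tests (70 assignments of 4 against 4) or sign-flip tests over the 8 samples were used for sample values. Clusters of 5 or more sites on all chromosomes and single sites were fitted with limma 3.58.1 in R 4.3.3 (empirical Bayes with trend) with Benjamini-Hochberg adjustment. The script was tested on simulated data. Python 3.11.15 with numpy 2.4.6, pandas 2.3.3 and scipy 1.17.1 did the rest. Tags come from PCR without molecular identifiers, so statements on depth cover counting error only. The labels do not say that a sample is 1 mouse apart from the stated 4 per group, and the tests see only the differences among these libraries.

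Regions named are the 10 with the most sites, the 5 lowest and 5 highest, the 5 with the smallest limma p in each direction and the 5 with the widest site spread among means of 25 to 75. Fzd5, Dpm1 and the family clusters were named beside them after their values were seen. The members and lists were chosen with earlier results of these data known. The plan named regions by position only. Gene names were added after the data were seen by matching CCGG spacing in 4373 RefSeq windows with 4 or more CCGG, of which 3795 matched 1 place, 58 several, and 74 matched when mirrored, as a measure of false matches. Of the 3795 matches, 1 out of RefSeq order was dropped, which left 3468 genes. RefSeq coordinates (GRCm38.p6) were not used. Alternatives covered the MspI minimum, gap, depth, scaling, thresholds, shared tags and each replicate left out.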

Additional observations from a re-analysis of the deposited data

Results flagged for a closer look

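Among 100 groups of 4 samples behind the values of named clusters and sample means, 2 had a sample set apart from the other 3 by more than Dixon's 95% limit, where chance gives about 5. HFD sample 3 had a mean m-score of 69.85 at chr2:33494744-33500126, the C130021I20Rik cluster, and the nearest other HFD sample had 73.97. It was also the shallowest library. Lingonberry sample 3 had 37.11 at chr3:108215039-108220504, the Celsr2 cluster, and the nearest other lingonberry sample had 39.74.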

How the results depend on the processing

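Of 108 alternatives of the 6 diet contrasts, 107 kept a higher value with lingonberries and 0 passed an adjusted p of 0.05 (0.0686 to 1), while 10 reached an unadjusted exact permutation p of 0.0286, the smallest possible. The exception was the share of long clusters at a threshold of 90, where the difference was 0. The contrast of close with distant sites was chosen after seeing the data and has no adjustment. It was 4.98 with at least 20 MspI tags and 3.20 to 5.66 with 1 sample left out, with an exact permutation p of 0.0286 for the first and, without HFD sample 1, for the last. Leaving out 1 sample gave 0 to 2 called member sites in limma, namely 2 without HFD sample 1 and 1 without HFD sample 2, and 0 called long clusters. The member mean difference ran from 1.51 to 2.56 with 1 sample left out. Among named clusters, the difference at chr10:79774608-79777396 turned to 1.70 with gaps of at most 250 bp, and that at chr12:14155921-14159480 to 1.02 with at least 20 MspI tags and 1.06 with gaps of at most 250 bp. Another 32 values of named clusters moved by more than the spread between samples, and 450 did not. The causes were not tested. No paired analysis was possible because the groups share no replicate number in the labels. Sites in methylated clusters had fewer than 4 tags on average, which limits their single values.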
